A study of Glycine max with 12 samples.

Results

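Among 39443 soybean loci with enough counts to be compared, 36 stood higher in 2 situations at once. They were already higher in young V3 leaves of the GmNAC81-overexpressing line GmNAC81-3 than in young leaves of its parent BR16, and they were also higher in old R6 leaves of BR16 than in its young leaves. The question behind the set is which transcripts of an ageing leaf were already raised in the young leaf of the overexpressing line. Each locus was picked from the measured values by a rule. The lowest of the 3 GmNAC81-3 V3 libraries and the lowest of the 3 BR16 R6 libraries each had to reach at least 2 times the highest of the 3 BR16 V3 libraries, in CPM (counts scaled by library size) with 0.1 added. The rule allowed up to 200 loci, and 36 qualified. The transgene's own locus, Glyma.12G022700, and a stretch of chromosome 2 from Glyma.02G060600 to Glyma.02G090500 were barred from the set, but none of them had met both criteria.

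The study sequenced leaf RNA of BR16, a conventional soybean cultivar, and of GmNAC81-3, a stable transgenic line of BR16 that carries GmNAC81 behind the constitutive 35S promoter. V3 leaves were taken 20 days after germination (DAG) and R6 leaves at 80 DAG. Each genotype was thus sampled at both stages, which gave 4 groups of 3 libraries, every library made from the third leaf of a separate plant. The study's methods also describe sequencing a second transgenic line, GmNAC81-1, which is not among the samples used here. GmNAC81-3 is 1 transformed line, so what the transgene does and what belongs to this line cannot be told apart. Young and old leaves were also run in different sequencing sets, so leaf age and sequencing set cannot be told apart either, whereas both genotypes of a stage shared a set.

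Leaf senescence is the last phase of a leaf's life, in which chloroplasts are dismantled and nitrogen and carbon are exported to growing seeds. NAC proteins are plant transcription factors, and several of them promote or delay senescence in Arabidopsis. GmNAC81 was described as a late component of a stress-signalling route. With its partner GmNAC30 it turns on a vacuolar processing enzyme, a protease that carries out programmed cell death in plants. Of the 36 loci, 3 carry a gene name in the study's lists of senescence, hormone and wounding genes. They are PAD4 (Glyma.06G156300), BT4 (Glyma.01G193300) and LOX1 (Glyma.10G153900), named after their Arabidopsis relatives. The other 33 are given here by locus identifier alone, since no annotation used here names them.

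GmNAC81 itself was measured at 3.58, 6.45, 7.26 CPM in the BR16 V3 libraries 1 to 3 and at 81.9, 184, 33.4 CPM in the GmNAC81-3 V3 libraries. At R6 it was measured at 60.7, 11.3, 41.9 CPM in BR16 and 46.6, 53.5, 69.1 CPM in GmNAC81-3. The overexpressing line was therefore set apart from BR16 at V3, in the direction of its label, and overlapped with it at R6. Library totals ran from 42797825 to 77952663 counts. In the GmNAC81-3 V3 libraries the 3 most abundant loci took 44.1 to 58.5% of all counts, against 32.1 to 38.5% in BR16 V3. The TMM factor, by which edgeR adjusts library size for unequal composition, was 0.498 to 0.657 in the GmNAC81-3 V3 libraries and 0.931 to 1.45 in the other 9. A large share in the top loci did not always go with a low factor, since GmNAC81-3 R6 replicate 1 had 54.2% with a factor of 0.931 and BR16 R6 replicate 2 had 47.6% with 1.09. All CPM here are divided by the library total times this factor. Identifiers were not matched to leaf cell type markers, so the tissue label was not checked this way, and for every bulk level below, fewer cells of a type and less RNA per cell cannot be told apart.

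The V3 criterion was met by 228 loci (0.578% of all tested) and the ageing criterion by 2910 (7.38%), and 36 loci were in both lists. Both criteria divide by the same highest BR16 V3 library, so the 2 lists are not independent and their overlap was not tested. The smaller of a locus's 2 ratios reached 3 in 8 loci, 4 in 3 loci and 5 in 1 locus. It lay below 2.5 in 23 of the 36. The V3 ratio was the smaller one in 24 of them. The last loci inside the threshold were Glyma.05G160800, with a smaller ratio of 2.01, and Glyma.20G175600, with 2.01. Just outside stood Glyma.04G104800 at 1.97 and Glyma.15G106700 at 1.97. Glyma.15G106700 was measured at 0.546, 0.566 and 0.458 CPM in BR16 V3 and 5.38, 2.93 and 1.21 CPM in GmNAC81-3 V3, so its values look like those of the loci inside.

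These loci were mostly scarce in young BR16 leaves. Their mean level in BR16 V3 was below 1 CPM for 22, from 1 to 5 CPM for 10 and at least 5 CPM for 4. In 13 of them no BR16 V3 library held more than 20 counts. Taking group means, the level in GmNAC81-3 V3 was 2.86 to 32.2 times that of BR16 V3, with a median of 5.66 times, and the level in BR16 R6 was 2.79 to 181 times that of BR16 V3, with a median of 11.9 times. The edgeR fit called 33 of the 36 higher in GmNAC81-3 V3 than in BR16 V3, where 1.75% of all tested loci were called higher, and all 36 higher in BR16 R6 than in BR16 V3, where 15.1% were called higher and 19.6% lower. At 29.7% of all loci every BR16 R6 library lay above every BR16 V3 library, as the rule requires of the 36. Both contrasts made the choice, so these counts describe the rule and carry no test.

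**Figure D1:**
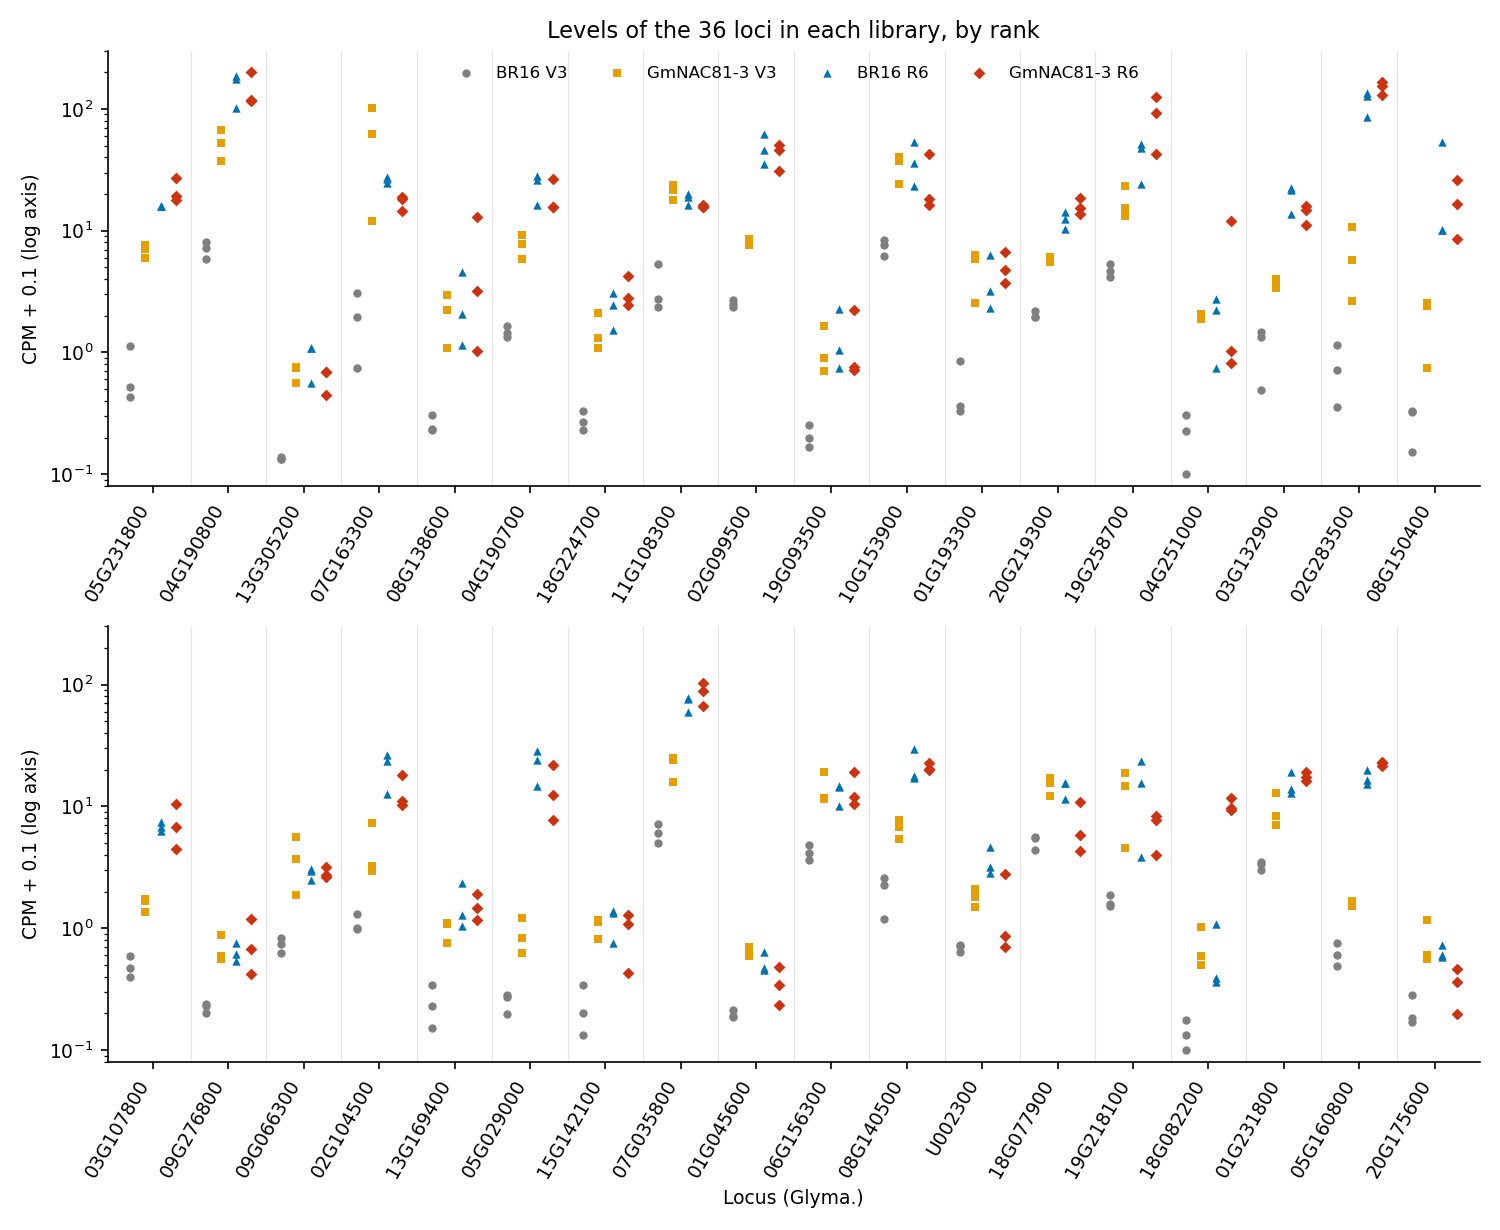
Level of each of the 36 loci in every library, in rank order of the rule from left to right and top to bottom; the vertical axis is CPM + 0.1 on a log scale, and each point is 1 library. The 3 BR16 V3 points lie lowest at most loci, while Glyma.18G082200 in the lower row shows the 3 GmNAC81-3 R6 points at 9.59, 11.6 and 9.28 CPM, above all other libraries at that locus.

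PAD4, a lipase-like protein that acts with EDS1 in salicylic acid-dependent defence in Arabidopsis, is the single locus of the 36 in the study's leaf senescence list, which has 63 tested loci. The study compiled that list on these same samples, so its presence there is no independent evidence. The PAD4 locus Glyma.06G156300 was measured at 4.75, 3.55 and 4.02 CPM in BR16 V3 and at 11.4, 19.2 and 11.5 CPM in GmNAC81-3 V3. With age it stood at 14.7, 14.2 and 10.04 CPM in BR16 and 11.9, 19.001 and 10.3 CPM in GmNAC81-3. The young leaves of the line and the old leaves of both genotypes thus overlapped, all 9 libraries lying above the 3 of BR16 V3. Between V3 and R6 of GmNAC81-3 the log2 fold change was -0.03 ± 0.28 (SE, n = 3 per group), which did not pass the test (adjusted p = 0.934, edgeR).

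LOX1 encodes a lipoxygenase, an enzyme that adds oxygen to polyunsaturated fatty acids, and its locus is in the study's wounding list. Glyma.10G153900 was measured at 6.06, 8.30 and 7.51 CPM in BR16 V3 and 37.1, 40.2 and 23.9 CPM in GmNAC81-3 V3. The R6 libraries gave 53.2, 35.5 and 23.0 CPM in BR16 and 16.01, 42.5 and 18.2 CPM in GmNAC81-3. Replicate 2 was the highest R6 library of the line and replicate 1 the highest of BR16. The young line and both sets of old leaves overlapped here too, and the change with age in the line was -0.40 ± 0.40 on the log2 scale (adjusted p = 0.435).

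BT4 is a protein with BTB and TAZ domains, which in Arabidopsis belongs to a small family of calmodulin-binding scaffold proteins. Its locus is in the salicylic acid and wounding lists. Glyma.01G193300 was measured at 0.751, 0.232 and 0.262 CPM in BR16 V3, so replicate 1 was the high library there. It reached 2.44, 5.73 and 6.26 CPM in GmNAC81-3 V3, 3.08, 6.19 and 2.23 CPM in BR16 R6 and 6.56, 3.64 and 4.63 CPM in GmNAC81-3 R6. Those 9 libraries overlapped, and the line's own change with age was 0.04 ± 0.50 (adjusted p = 0.956). Of the 391 tested loci in all the lists taken from the study, these 3 were the members. Its ageing, cell death, ethylene and circadian lists held 0 of the 36, which says little with 36 members among 39443 loci. The drought list held 0 too, but the study drew it from loci changed only between genotypes at V3, which largely fixed that. The study's examples shared by overexpression and ageing had 5 tested loci and 0 members. Of its raised examples, MLO3, KIN10 and NRT1.5 had V3 ratios of 1.81, 1.38 and 0.843, and JMT an ageing ratio of 0.375. The study listed JMT as higher in old than in young BR16. Here JMT was measured at 0.239, 0.180 and 0.0654 CPM in BR16 V3 and 0.0355, 0.0273 and 0.0462 CPM in BR16 R6. The direction was thus the opposite, at very low levels. The vacuolar processing enzyme loci Glyma.14G092800 and Glyma.17G230700 had 0.851 and 0.992 at V3.

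The comparison of R6 with V3 within GmNAC81-3 asked whether loci already high in the young line went on to change as its leaves aged. The edgeR fit called 17 of the 36 higher at R6, beside 16.5% of all tested loci, and 3 lower, beside 20.1%. The median log2 fold change was 1.19 over the 36 and 0.03 over all loci. At 19 of them every R6 library lay above every V3 library of the line (26.7% of all loci), and at 4 every one lay below (25.5%). The R6 libraries of GmNAC81-3 had no part in the rule, but its V3 libraries did, and the loci were picked for being high in them. Loci that met only the V3 criterion, outside the barred stretch (178), were called higher in 1.12% and lower in 78.1%. Those that met only the ageing criterion (2856) were called higher in 86.9% and lower in 0%, so the 36, at 47.2% and 8.33%, lay between. The 3 sets were defined with the same GmNAC81-3 V3 libraries, so this order is partly built in by the choice and was not tested.

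**Figure D2:**
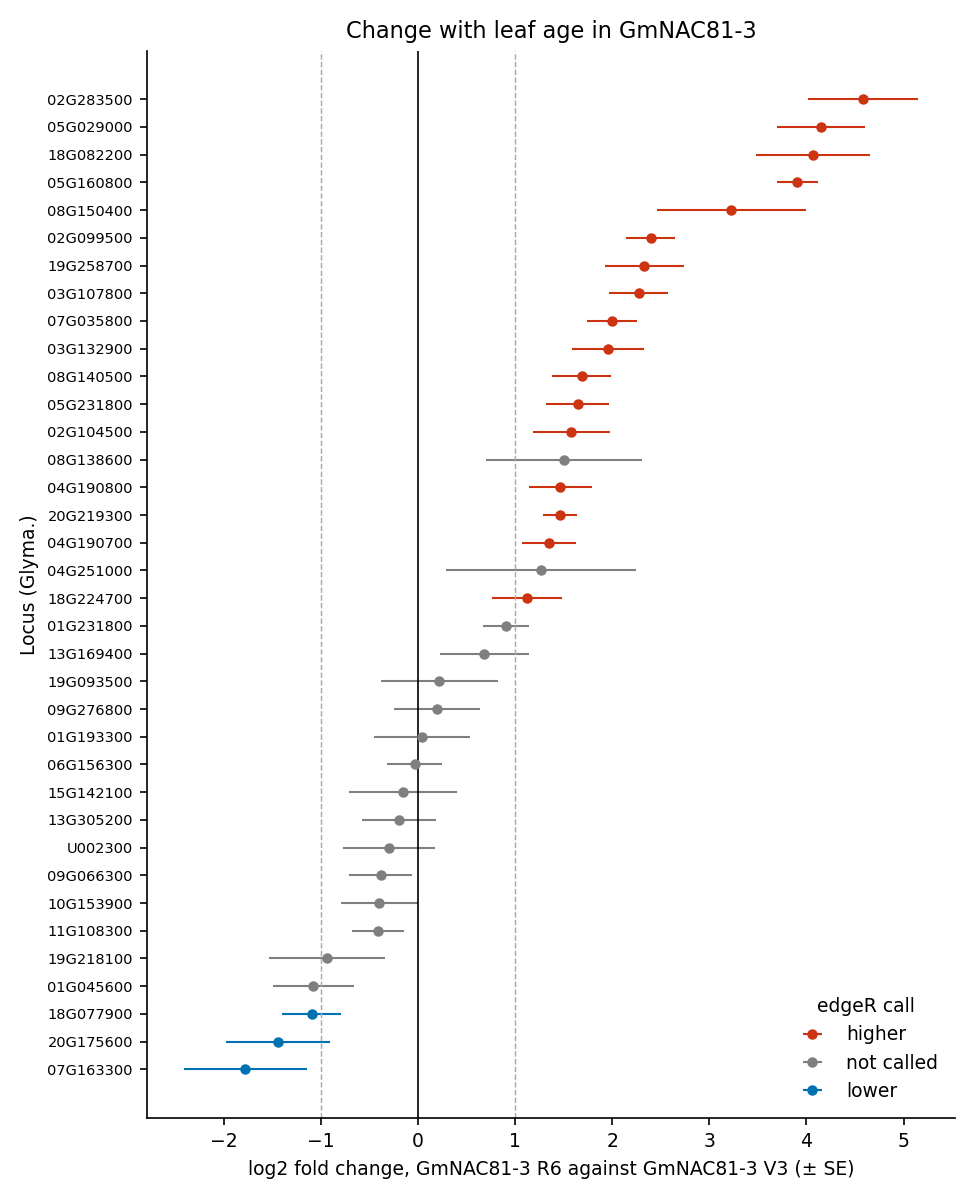
Fitted log2 fold change of GmNAC81-3 R6 against GmNAC81-3 V3 for the 36 loci, sorted by size; bars are standard errors, the dashed lines mark a change of 1 in either direction, and colours give the edgeR call. The values run from 4.58 at Glyma.02G283500 to -1.78 at Glyma.07G163300, with 17 loci called higher and 3 lower.

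The 17 loci that rose with age in the line included 15 whose young GmNAC81-3 leaves had been intermediate, with all 3 V3 libraries below all 3 BR16 R6 libraries. Only 1 other locus of the 36, Glyma.U002300, had that intermediate position. Over all tested loci, 29.8% had every GmNAC81-3 V3 library below every BR16 R6 library, as did 97.1% of those meeting only the ageing criterion. Those shares do not require a level above BR16 V3, so they are not shares of intermediate loci. The GmNAC81-3 V3 and BR16 R6 libraries were both used by the rule, so the division into intermediate and overlapping loci is a description of selected values. That division and the rise with age also share the GmNAC81-3 V3 libraries, so the count of 15 among the 17 is not independent of the test. The largest change was at Glyma.02G283500, which was measured at 1.06, 0.257 and 0.621 CPM in BR16 V3 and 10.6, 5.61 and 2.56 CPM in GmNAC81-3 V3. It then reached 128, 86.1 and 136 CPM in old BR16 leaves and 155, 131 and 165 CPM in old leaves of the line. The young line held 5.38% of the old BR16 level, and the rise with age in GmNAC81-3 was 4.58 ± 0.57 on the log2 scale (adjusted p = 7.33e-05).

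Glyma.05G029000 was the locus with the smallest young level relative to the old one. BR16 V3 gave 0.171, 0.180 and 0.0981 CPM, from 10, 14 and 6 counts, and GmNAC81-3 V3 gave 0.528, 0.731 and 1.103 CPM, from 16, 18 and 31 counts. The old leaves gave 24.0, 14.5 and 28.3 CPM in BR16 and 7.68, 21.8 and 12.4 CPM in GmNAC81-3. Its young level in the line was 3.54% of that in old BR16 leaves, and it rose by 4.15 ± 0.45 with age in the line (adjusted p = 2.9e-05).

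Glyma.05G160800, the next to last locus by rank, was tight among replicates. It was measured at 0.393, 0.656 and 0.507 CPM in BR16 V3, 1.42, 1.46 and 1.57 CPM in GmNAC81-3 V3 and 15.1, 16.3 and 19.8 CPM in BR16 R6. The GmNAC81-3 R6 libraries gave 22.5, 21.2 and 22.9 CPM, each above all 3 BR16 R6 libraries, a genotype difference at R6 of 0.38 ± 0.18 that did not pass the test (adjusted p = 0.746). With age the locus rose by 3.90 ± 0.21 in the line (adjusted p = 4.58e-07).

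Glyma.08G150400 was measured at 0.222, 0.0515 and 0.229 CPM in BR16 V3 and 2.44, 0.650 and 2.31 CPM in GmNAC81-3 V3, where replicate 2 held 16 counts. At R6 it was spread widely, with 9.94, 53.4 and 10.1 CPM in BR16 and 16.5, 8.46 and 26.1 CPM in GmNAC81-3. Replicate 2 of BR16 R6 stood well above the other libraries of its group. The rise in the line was 3.23 ± 0.77 (adjusted p = 0.00530), larger than the spread among its replicates despite the uneven counts.

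The first-ranked locus, Glyma.05G231800, was measured at 1.02, 0.335 and 0.425 CPM in BR16 V3, 7.53, 6.91 and 5.91 CPM in GmNAC81-3 V3 and 15.9, 15.9 and 15.7 CPM in BR16 R6. Old leaves of the line gave 19.1, 26.7 and 17.7 CPM, all above those of BR16. The rise with age in GmNAC81-3 was 1.64 ± 0.33 (adjusted p = 0.00176), and the genotype difference at R6, 0.42 ± 0.31, did not pass the test (adjusted p = 0.887).

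Glyma.04G190800 and Glyma.04G190700, ranked second and sixth, are next to each other on chromosome 4 and were the one pair of neighbours among the 36. Glyma.04G190800 was measured at 7.92, 7.15 and 5.74 CPM in BR16 V3, 52.5, 67.4 and 36.9 CPM in GmNAC81-3 V3, 187, 175 and 102 CPM in BR16 R6 and 117, 199 and 117 CPM in GmNAC81-3 R6. Glyma.04G190700 was measured at 1.35, 1.56 and 1.24, then 7.69, 9.06 and 5.76, 28.1, 25.9 and 16.1 and 15.4, 26.3 and 15.5 CPM in the same order of groups. The low library was replicate 3 in GmNAC81-3 V3 and in BR16 R6 for both, and the high one in GmNAC81-3 R6 was replicate 2 for both. They rose in the line by 1.47 ± 0.32 (adjusted p = 0.00328) and by 1.35 ± 0.28 (adjusted p = 0.00239). Whether neighbouring copies shared reads was not examined, so the pair is uncertain as 2 separate results.

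Glyma.02G099500 was measured at 2.27, 2.38 and 2.58 CPM in BR16 V3 and 7.60, 8.45 and 8.04 CPM in GmNAC81-3 V3. It stood at 45.9, 35.1 and 62.6 CPM in BR16 R6 and 50.3, 30.7 and 45.9 CPM in GmNAC81-3 R6. The young line was at 3.33 times young BR16 and the old BR16 leaves at 19.9 times, so the V3 step was the smaller one. Its rise in the line was 2.398 ± 0.25 (adjusted p = 2.28e-05).

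Glyma.19G258700 was measured at 5.24, 4.05 and 4.59 CPM in BR16 V3 and 15.3, 23.3 and 13.02 CPM in GmNAC81-3 V3. The R6 values were 24.1, 51.1 and 47.2 CPM in BR16 and 92.3, 42.5 and 124 CPM in GmNAC81-3, where replicates 1 and 3 exceeded every BR16 library and replicate 2 did not. It rose by 2.33 ± 0.41 with age in the line (adjusted p = 0.00078). The genotype difference at R6 was 1.08 ± 0.39 and did not pass the test (adjusted p = 0.629).

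The other 6 loci with an intermediate young level rose with age in the line too. In Glyma.07G035800 the mean CPM was 5.98 ± 1.12 in BR16 V3, 21.6 ± 4.97 in GmNAC81-3 V3, 71.4 ± 10.3 in BR16 R6 and 86.2 ± 18.7 in GmNAC81-3 R6 (SD, n = 3 each). In Glyma.20G219300 these means were 1.93 ± 0.126, 5.71 ± 0.287, 12.2 ± 1.94 and 15.7 ± 2.42 CPM in the same order. The rise in the line was 2.00 ± 0.26 (adjusted p = 8.93e-05) and 1.46 ± 0.18 (adjusted p = 6.25e-05).

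For Glyma.08G140500 the group means were 1.92 ± 0.732 CPM in BR16 V3, 6.53 ± 1.21 in GmNAC81-3 V3, 21.3 ± 6.90 in BR16 R6 and 20.98 ± 1.47 in GmNAC81-3 R6. For Glyma.03G107800 they were 0.387 ± 0.101, 1.48 ± 0.199, 6.74 ± 0.606 and 7.14 ± 2.99 CPM. The rise in the line was 1.69 ± 0.31 for Glyma.08G140500 and 2.27 ± 0.30 for Glyma.03G107800. Adjusted p was 0.00101 and 0.000127, so both passed with a young level at 30.7% and 22.0% of old BR16.

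Glyma.03G132900 went from 0.995 ± 0.526 CPM in BR16 V3 and 3.57 ± 0.312 in GmNAC81-3 V3 to 19.1 ± 4.81 in BR16 R6 and 13.8 ± 2.48 in GmNAC81-3 R6. Glyma.02G104500 went from 0.999 ± 0.182 and 4.40 ± 2.46 CPM to 20.8 ± 7.34 and 13.1 ± 4.24 CPM in the same groups. Their rise in the line passed the test, at 1.96 ± 0.37 (adjusted p = 0.00124) and 1.58 ± 0.39 (adjusted p = 0.00691). Across the 16 intermediate loci the young line stood between 3.54% of the old BR16 mean, at Glyma.05G029000, and 49.2%, at Glyma.U002300.

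The remaining 2 of the 17 had young GmNAC81-3 libraries that overlapped with old BR16. Glyma.18G224700 was measured at 0.171, 0.232 and 0.131 CPM in BR16 V3, 0.991, 1.22 and 1.99 in GmNAC81-3 V3, 1.43, 2.97 and 2.33 in BR16 R6 and 2.72, 2.34 and 4.11 in GmNAC81-3 R6. Its rise of 1.12 ± 0.36 (adjusted p = 0.0248) was lost without GmNAC81-3 V3 replicate 1, V3 replicate 2 or R6 replicate 3, when adjusted p was 0.0766, 0.0725 and 0.0983. The other 16 of the 17 kept their call in every alternative that could be fitted.

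Glyma.18G082200 was the one locus of the 36 that differed between the genotypes at R6. Young BR16 leaves held 0, 6 and 2 counts, old BR16 leaves 33, 19 and 86 and young GmNAC81-3 leaves 12, 12 and 26. Old leaves of the line held 579, 1091 and 581 counts, which is 9.59, 11.6 and 9.28 CPM against 0.293, 0.259 and 0.992 CPM in old BR16. The 3 old GmNAC81-3 libraries were close to one another and above every library of the other groups. The locus was higher in GmNAC81-3 than in BR16 at R6 by 4.30 ± 0.57 on the log2 scale (adjusted p = 0.0165) and rose with age in the line by 4.07 ± 0.59 (adjusted p = 0.000211). The genotype call was lost when BR16 R6 replicate 1 (adjusted p = 0.132) or replicate 2 (0.0519), or GmNAC81-3 R6 replicate 1 (0.0780) or replicate 3 (0.0718), was left out, and with those groups fitted alone (0.0880) or library totals (0.0546). Its log2 difference stayed between 3.98 and 5.19 in all 20 alternatives.

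The comparison of the genotypes at R6 asked whether the old leaves of the line still differed from those of BR16 at these loci. Glyma.18G082200 was the 1 locus called higher, beside 0.0659% of all loci, and 0 were called lower, beside 0.033%, by edgeR; DESeq2 called the same numbers among the 36. At an unadjusted p under 0.05 stood 5 of the 36, against 2706 of all 39443. The median log2 difference was -0.08 over the 36 and 0.00 over all loci. The mean of GmNAC81-3 R6 was within 2-fold of BR16 R6 at 28 loci and ran from 39.4% of it at Glyma.U002300 to 1972% at Glyma.18G082200, with a median of 94.9%. The BR16 R6 libraries were used by the rule, and a difference that did not pass the test does not show that the levels were equal.

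At 3 loci all old libraries of the line lay above those of BR16 (6.8% of all loci), namely Glyma.05G231800, Glyma.18G082200 and Glyma.05G160800. At 4 they lay below (6.86% of all loci), namely Glyma.07G163300, Glyma.U002300, Glyma.18G077900 and Glyma.20G175600. Glyma.U002300, on an unplaced scaffold, was measured at 4.53, 2.74 and 3.07 CPM in BR16 R6 and 0.762, 2.71 and 0.607 CPM in GmNAC81-3 R6, where replicate 2 stood well above the others. The genotype difference was -1.33 ± 0.47 (adjusted p = 0.617). Without that replicate it was called lower, the 1 such call among the 36.

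**Figure D3:**
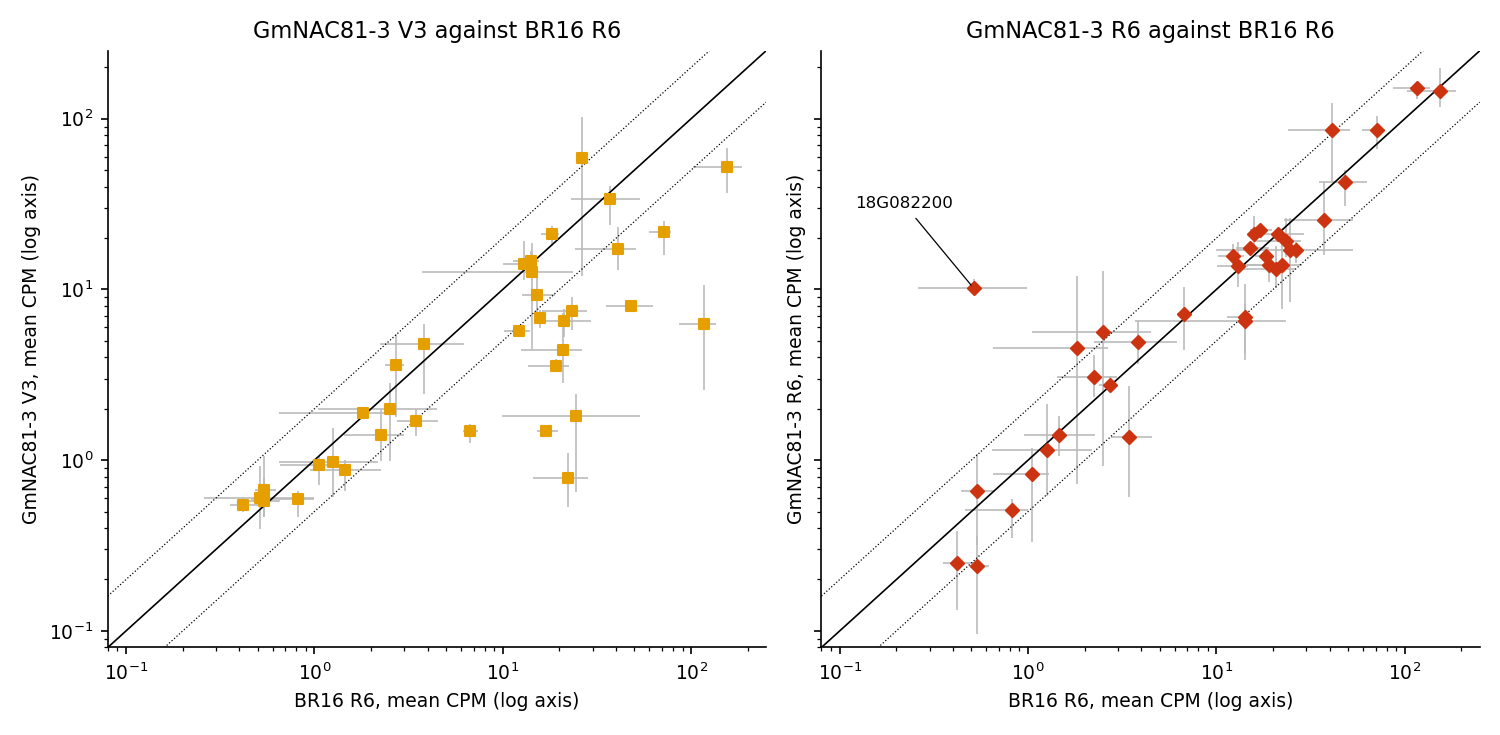
Mean CPM of each of the 36 loci in GmNAC81-3 V3 (left) and GmNAC81-3 R6 (right) against BR16 R6, on log axes; grey lines span the lowest to the highest library, the solid line marks equal levels and the dotted lines 2-fold. On the left, 16 loci lie below 50% of the old BR16 level, and on the right 28 lie within 2-fold, with Glyma.18G082200 far above the line.

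A further 3 loci fell with age in the line although they were higher in old than in young BR16. Glyma.07G163300 had the highest young level relative to old BR16, 223% of it. It was measured at 102, 62.0 and 11.9 CPM in GmNAC81-3 V3, where replicate 3 was low, and at 18.9, 14.3 and 18.2 CPM in GmNAC81-3 R6, against 2.97, 0.643 and 1.85 CPM in BR16 V3 and 27.7, 26.6 and 24.6 CPM in BR16 R6. The V3 and R6 ranges of the line overlapped through that replicate, and the locus fell by 1.78 ± 0.63 on the log2 scale (adjusted p = 0.0374).

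Glyma.18G077900 was measured at 5.50, 4.28 and 5.38 CPM in BR16 V3 and 15.4, 16.9 and 11.95 CPM in GmNAC81-3 V3. Old leaves gave 15.5, 11.3 and 15.4 CPM in BR16 and 5.68, 10.7 and 4.22 CPM in GmNAC81-3, so the old line overlapped with young BR16. It fell by 1.097 ± 0.31 in the line (adjusted p = 0.0123). On library totals this change was 0.048, with no call.

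Glyma.20G175600 was the third, at 0.462, 1.06 and 0.498 CPM in GmNAC81-3 V3 and 0.265, 0.361 and 0.0958 CPM in GmNAC81-3 R6, from 14, 26 and 14 and 16, 34 and 6 counts. In BR16 it was measured at 0.0683, 0.180 and 0.0818 CPM at V3 and 0.622, 0.504 and 0.485 CPM at R6. The fall was 1.44 ± 0.53 (adjusted p = 0.0439). These 3 calls were the least stable of the comparison. None of them was left on library totals or without GmNAC81-3 V3 replicate 2, GmNAC81-3 R6 replicate 1 or GmNAC81-3 R6 replicate 3, and 1 was left when BR16 V3 replicate 3 or either of BR16 R6 replicates 1 and 3 was dropped.

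The 16 loci that passed the test in neither direction included 13 whose mean in the old line was within 2-fold of that in the young line, PAD4, LOX1 and BT4 among them. Glyma.11G108300 was measured at 5.27, 2.64 and 2.26 CPM in BR16 V3, 17.9, 23.6 and 21.6 in GmNAC81-3 V3, 19.8, 18.8 and 16.04 in BR16 R6 and 15.6, 16.1 and 15.6 in GmNAC81-3 R6. Every old library of the line lay below every young one, by a fitted -0.41 ± 0.27 (adjusted p = 0.238). Glyma.09G066300 had means of 0.634 ± 0.106, 3.61 ± 1.85, 2.73 ± 0.318 and 2.76 ± 0.303 CPM in the same order of groups, and Glyma.01G231800 had 3.18 ± 0.244, 9.32 ± 3.09, 15.2 ± 3.35 and 17.5 ± 1.51 CPM. The change with age of Glyma.01G231800, 0.91 ± 0.24, had an adjusted p of 0.00866 but was below the limit of 1 on the log2 scale.

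Glyma.13G305200, of rank 3, was nearly silent in young BR16 with 2, 3 and 2 counts, or 0.0341, 0.0386 and 0.0327 CPM. Summed over libraries, its level in GmNAC81-3 V3 was 16.7 times that of BR16 V3 (95% interval 7.50 to 43.6, exact, counting error only), and in BR16 R6 it was 23.3 times (11.1 to 58.6). Both contrasts chose this locus, so the intervals describe selected values and are no test. They leave out the spread among plants and treat each count as independent, which was not checked. The line gave 0.660, 0.650 and 0.463 CPM at V3 and 0.596, 0.595 and 0.351 CPM at R6, overlapping ranges with a fitted change of -0.20 ± 0.38 (adjusted p = 0.702).

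Glyma.19G093500 was measured at 0.0683, 0.154 and 0.0981 CPM in BR16 V3, 0.792, 1.54 and 0.605 in GmNAC81-3 V3, 0.9501, 2.18 and 0.646 in BR16 R6 and 0.662, 0.616 and 2.14 in GmNAC81-3 R6, each aged group having 1 library well above the rest. Glyma.13G169400 had group means of 0.140 ± 0.0941, 0.877 ± 0.188, 1.46 ± 0.704 and 1.41 ± 0.374 CPM in that order, and its old libraries in the line all lay above its young ones. Glyma.15G142100 had 0.125 ± 0.105, 0.931 ± 0.190, 1.05 ± 0.348 and 0.830 ± 0.444 CPM, and Glyma.09G276800 had 0.123 ± 0.0180, 0.578 ± 0.178, 0.538 ± 0.111 and 0.662 ± 0.394 CPM. Their fitted changes in the line lay between -0.16 at Glyma.15G142100 and 0.68 at Glyma.13G169400, and none passed.

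Glyma.19G218100 was measured at 1.42, 1.78 and 1.49 CPM in BR16 V3, 18.7, 14.5 and 4.48 in GmNAC81-3 V3, 15.5, 3.71 and 23.5 in BR16 R6 and 7.65, 8.17 and 3.87 in GmNAC81-3 R6. Replicate 3 was low in the young line and replicate 2 in old BR16, so the groups overlapped and the change in the line, -0.94 ± 0.60, did not pass (adjusted p = 0.224). Glyma.U002300 was measured at 0.615, 0.540 and 0.621 CPM in BR16 V3 and 1.39, 1.99 and 1.71 CPM in GmNAC81-3 V3, and its change with age in the line was -0.30 ± 0.48 (adjusted p = 0.635).

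Of the 3 loci outside that 2-fold range, 2 were scattered in the old line. Glyma.08G138600 gave 0.991, 2.11 and 2.85 CPM at V3 and 12.8, 3.08 and 0.926 CPM at R6 in GmNAC81-3, with 0.137, 0.206 and 0.131 CPM in BR16 V3 and 1.05, 1.98 and 4.50 CPM in BR16 R6. Glyma.04G251000 gave 1.92, 1.95 and 1.78 CPM and 11.9, 0.722 and 0.926 CPM in the line, with 0.205, 0.129 and 0 and 0.648, 2.67 and 2.12 CPM in BR16. In both, replicate 1 of GmNAC81-3 R6 was the high library, at Glyma.04G251000 by 16.5 times over the lowest. The fitted changes of 1.502 ± 0.80 and 1.26 ± 0.98 did not pass (adjusted p = 0.147 and 0.315).

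Glyma.01G045600 went the other way. It was measured at 0.0854, 0.0901 and 0.115 CPM in BR16 V3, 0.495, 0.528 and 0.605 in GmNAC81-3 V3, 0.533, 0.354 and 0.369 in BR16 R6 and 0.133, 0.382 and 0.240 in GmNAC81-3 R6. All old libraries of the line lay below its young ones, from 8, 36 and 15 and 15, 13 and 17 counts. The fitted change of -1.08 ± 0.42 missed the threshold (adjusted p = 0.0520). It was called lower by DESeq2 (-1.09, adjusted p = 0.0419), in edgeR with DESeq2 size factors (adjusted p = 0.0489) and without GmNAC81-3 R6 replicate 2 (-1.52, adjusted p = 0.0218). Over all its alternatives adjusted p ran from 0.0218 to 0.963, the highest on library totals.

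The old leaves of the line were also set against young BR16 leaves, the baseline of the rule. The edgeR fit called 33 of the 36 higher, beside 13.2% of all loci, and 0 lower, beside 19.3%. The median log2 fold change was 3.65 over the 36 and -0.02 over all loci. At 29 the lowest old library of the line reached 2 times the highest young BR16 library, as did 5.95% of all loci. The exceptions to the call were Glyma.U002300 at 1.21 ± 0.48 (adjusted p = 0.0640), Glyma.18G077900 at 0.45 ± 0.30 (adjusted p = 0.261) and Glyma.20G175600 at 1.103 ± 0.56 (adjusted p = 0.137). For comparison, 93.8% of the loci that met only the ageing criterion and 18.5% of those that met only the V3 criterion were called higher here. The BR16 V3 libraries are those against which the 36 were chosen, so this count shares 1 group with the rule.

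How many loci qualified depended on how the GmNAC81-3 V3 libraries were scaled. With library totals in place of TMM, 6 loci met the rule, 5 of them among the 36, and the median of all loci between the V3 groups shifted to -1.08 on the log2 scale, against -0.04. On that scale the smaller ratio of the 36 had a median of 1.36 and ran from 0.824 at Glyma.05G160800 to 3.47 at Glyma.04G251000, values that come from the libraries used to choose them. The 5 that still met it were Glyma.05G231800, Glyma.04G190800, Glyma.13G305200, Glyma.07G163300 and Glyma.04G251000. The same scaling moved the median of all loci with age in the line to 1.07, and the shares of all loci called higher and lower there to 47.4% and 10.1%. On it, 21 of the 36 were called higher with a median of 2.08, the added calls being PAD4, Glyma.08G138600, Glyma.13G169400 and Glyma.01G231800.

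The rule takes the lowest and the highest of 3 libraries, so leaving one out eases it by construction, apart from the rescaling. Leaving out BR16 V3 replicate 1 raised it to 83 loci. Leaving out GmNAC81-3 V3 replicate 1 raised it to 74, and leaving out its replicate 3 to 82, with all 36 among them in each case. Leaving out BR16 V3 replicate 2 gave 54. BR16 V3 replicate 1 was the highest of its group at 16 of the 36, and GmNAC81-3 V3 replicates 1 and 3 were the lowest of theirs at 19 and 16. An offset of 1 CPM left 10 loci, all among the 36, and at least 10 counts in every library left 22.

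**Figure D4:**
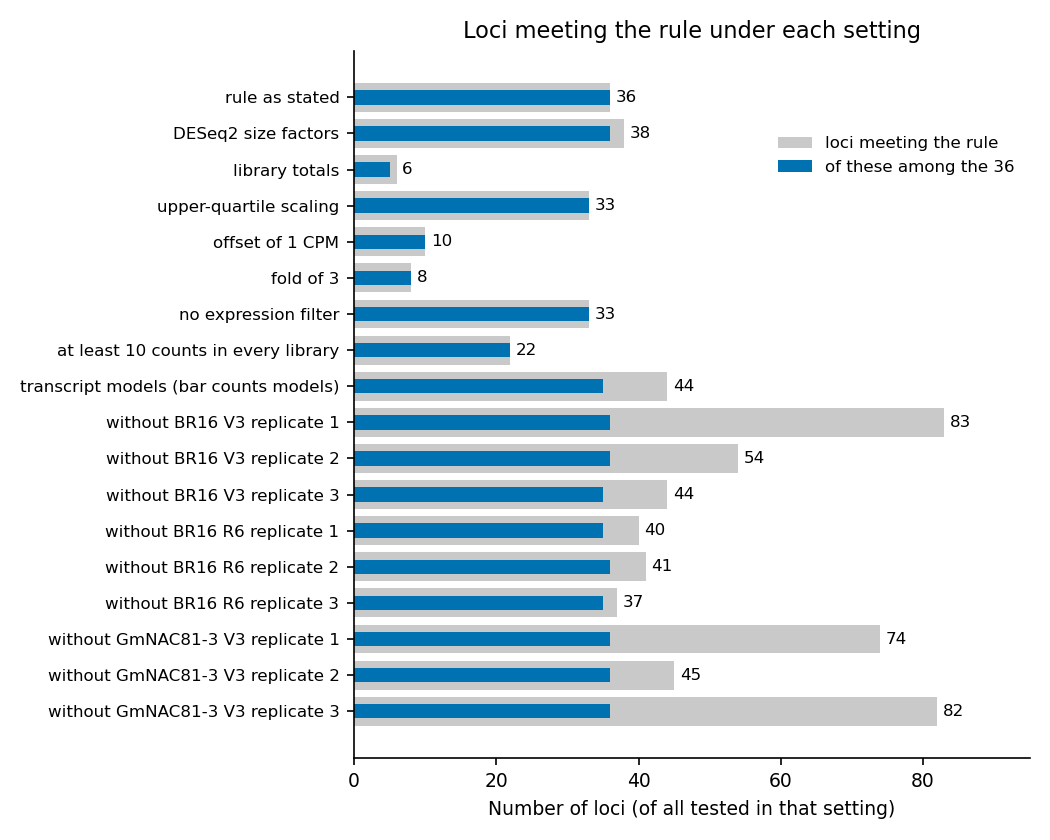
Number of loci that met the rule under each setting (grey bars) and how many of them belong to the 36 (blue bars), counted from 0; for transcript models the grey bar counts models. The rule as stated gives 36 loci, library totals 6, and leaving out BR16 V3 replicate 1 gives 83.

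The 36 loci were scattered over the genome. They lay on 16 chromosomes and 1 unplaced scaffold, with at most 3 on a chromosome, and chromosomes 12, 14, 16 and 17 held 0. Of the 107 distinct tested loci within 2 places of a member, 3 met the V3 criterion, as did 0.578% of all tested loci. The ageing criterion was met by 11 of them and by 7.38% of all tested loci. Each count includes both members of the chromosome 4 pair. Around Glyma.18G082200, from Glyma.18G080200 to Glyma.18G084200, 27 loci were tested. In GmNAC81-3 at R6, 2 of them, Glyma.18G082200 included, were called higher and 1 lower, beside 0.0659% and 0.033% of all tested loci. The stretch was centred on a called locus, and why other calls lay near it was not tested. Of the 36, 28 have 1 transcript model and 8 have several, and in 7 of those 8 the same model led in all 4 groups. The exception was Glyma.05G029000, where model 2 held 43.1% of the counts in GmNAC81-3 V3 and 51.1% in BR16 R6.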

How the data were processed

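Leaf RNA was sequenced from 12 libraries, 3 plants in each of 4 groups, as stranded paired-end libraries. The deposited values are whole-number counts per transcript model, made by the authors and not normalized. The study's methods describe trimming with Sickle, mapping to genome Wm82.a2.v1 and counting with Rsubread, and name Bowtie 2, whereas the submitters' processing notes name HISAT2 2.1.0 and featureCounts. Counts of 84782 models were summed to 52660 loci, the transgene terminator row being added to GmNAC81. Of the counts below 50, 75.0 to 86.1% were even, and how fragments were counted is not given in the sources used here. Intervals cover counting error only and treat each count as independent, which was not checked.

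Loci were kept by filterByExpr over the 4 groups, scaled by TMM and fitted in edgeR 4.0.16 (R 4.3.3) with the quasi-likelihood test over all 12 libraries. Calls needed a Benjamini-Hochberg adjusted p under 0.05 over all 39443 loci and an absolute log2 change over 1. Standard errors are the fold change divided by the root of the F statistic. The common biological coefficient of variation was 0.332. DESeq2 1.42.0 was an alternative, and figures were drawn with matplotlib 3.10.9. The test was tried on simulated data first.

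Loci were named by rule: the 25 ranked first, those in the study's lists, those called in a tested contrast, those at the threshold and the 5 highest and 5 lowest in GmNAC81-3 R6 relative to BR16 R6. With 36 members, the rest are given too. The members and lists were chosen with earlier results of these data known. Gene families, leaf markers and promoter motifs were not analysed here, because no locus identifier matched the gene table used. The depth per library was 42797825 to 77952663 counts. The sources describe separate plants per library. Replicate numbers did not pair the samples of the tested contrasts. Those of BR16 V3 and GmNAC81-3 V3 did, with correlations of deviations of 0.404, 0.221 and 0.129, but that contrast chose the loci and has no test.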

Additional observations from a re-analysis of the deposited data

Results flagged for a closer look

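At 4 loci the 2 genotypes went opposite ways with age in every library. In BR16 all R6 libraries lay above all V3 libraries, which the rule fixed, and in GmNAC81-3 all R6 libraries lay below all V3 libraries. The loci were also picked for being high in GmNAC81-3 at V3, so neither direction is independent of the choice. Of all tested loci, 0.256% showed both directions and 25.5% the one in GmNAC81-3, which 88.2% of the loci meeting only the V3 criterion also showed. The fitted log2 fold change of GmNAC81-3 R6 against V3 was -0.41 at Glyma.11G108300, -1.08 at Glyma.01G045600, -1.10 at Glyma.18G077900 and -1.44 at Glyma.20G175600. The difference between the genotypes was not tested, because it contains both contrasts of the rule. On library totals the values of Glyma.01G045600 and Glyma.18G077900 were 0.032 and 0.048. With 3 libraries in each group, no library was examined as lying far from the others.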

How the results depend on the processing

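The number of loci meeting the rule was 6 with library totals, 10 with an offset of 1 CPM, 8 with a fold of 3, 22 with at least 10 counts in every library and 37 to 83 with 1 library left out, against 36. DESeq2 size factors gave 38, upper-quartile scaling 33, no expression filter 33 and transcript models 44 models of 38 loci. With age in GmNAC81-3, 13 to 21 of the 36 were called higher in all alternatives, and the 3 called lower became 0 with library totals or an adjusted p of at most 0.01, 1 with those groups alone, 4 by DESeq2 or with DESeq2 size factors and 0 to 4 with 1 library left out. Between genotypes at R6 the 1 locus called higher became 0 with library totals, at least 10 counts (where it was not in the fit), those groups alone or an adjusted p of at most 0.01. With 1 library left out it was 0 to 1, and 0 to 1 were called lower. Old GmNAC81-3 leaves against young BR16 gave 33 called higher, 21 of the 23 loci left with at least 10 counts, and 31 to 34 otherwise. Reversed in sign were Glyma.01G045600 (0.032) and Glyma.18G077900 (0.048) with age in the line on library totals, and Glyma.18G077900 against BR16 V3 without GmNAC81-3 R6 replicate 2 (-0.023, in a range of -0.023 to 0.71 over the libraries left out); apart from the scaling and the fewer samples, the cause was not tested. Over all loci, the genotype calls at R6 numbered 26 higher and 13 lower, but 122 and 102 by DESeq2, 12 and 7 with library totals, 8 and 0 with at least 10 counts, 14 and 5 with the replicate block, 8 and 4 for those groups alone, 11 and 4 at an adjusted p of at most 0.01 and 6 to 32 higher and 3 to 25 lower with 1 library left out. With age in the line library totals gave 18682 higher and 3975 lower, against 6493 and 7917.

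The replicate block changed the calls among the 36 to 17 higher and 2 lower with age in the line, 1 and 0 between genotypes at R6, and 32 and 0 against BR16 V3. Same-numbered libraries of the groups tested here deviated together with correlations from -0.37 to 0.21, not all above 0.1, so these samples share only a number. BR16 V3 and GmNAC81-3 V3, compared by the rule and not tested, deviated together in each number (0.404, 0.221 and 0.129). The promoter motif alternatives were not run, for want of sequences. At 13 loci with at most 20 counts in each BR16 V3 library, depth limits how well the young baseline is known.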

Other observations

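Over the 3 GmNAC81-3 V3 libraries, 19 of the 36 loci were highest in replicate 2, the library with the most GmNAC81 (184 CPM), where 30.6% of all tested loci were highest. The whole order of the 3 libraries matched that of GmNAC81 at 11 loci, but the share of all tested loci with that order was not obtained. The rule used these libraries, and a relation to the GmNAC81 level was not tested. Replicate 2 also had the lowest TMM factor, 0.498, and the largest share of counts in its 3 most abundant loci, 58.5%. The part of scaling in this order was not tested.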
